A study of Mus musculus with 14 samples.

Results

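Histone H2A deubiquitinases and the BAP1 complex were described at the transcript level through 9 genes: Bap1, Asxl1, Asxl2, Foxk1, Foxk2, Usp16, Mysm1, Usp3 and Usp21. They were chosen by symbol from the 55228 symbols of the count table, all 9 were found, and all 9 passed the filter on low counts together with 11757 genes in all. The libraries came from mouse epidermal cells of the genotype Lrig1CreER/Rosa-TdTomato, which places a tamoxifen-dependent Cre under Lrig1, a stem cell gene of the hair follicle's upper part, with a red Cre reporter. The cells were taken from tail epidermis at the time called 8w pw1, sorted for the surface antigen Sca1, and cultured for 1 week, so the values describe cells grown outside the tissue. Controls were 8 libraries from a region labelled as non-memory, and 6 libraries came from the region labelled as distal memory. Both regions share the genotype, the treatment entry "none", the time and the sort, and the labels give no age. The sample descriptions place the libraries in 4 sets, 6 and 2 libraries for the control region and 2 and 4 for the distal region, and no set holds both regions. Nothing in the labels ties a library to an animal or culture of its own, and p-values therefore reflect only how much the libraries of a group vary, possibly for technical reasons.

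Polycomb repressive complex 1, through the ligases RING1 and RNF2, attaches a single ubiquitin to histone H2A, a mark of repressed genes, and several enzymes take it off. BAP1 is a nuclear hydrolase that acts on this mark when bound to ASXL1 or ASXL2, which activate it, and the forkhead factors FOXK1 and FOXK2 bring the complex to chromatin. USP16, USP3 and USP21 are cysteine proteases of the USP family, and MYSM1 is a metalloprotease, and all of them also remove ubiquitin from H2A. In skin, Polycomb repression is known for holding back lineage programmes in epidermal progenitors.

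Total counts were 4515646 to 7458872 in control and 2137934 to 4513518 in distal libraries, and the deepest distal library lay just under the shallowest control library. The share of mitochondrial counts was 3.799% to 7.13% in control and 1.957% to 5.478% in distal libraries. The 9 genes together held 1051 to 4717 counts per library. The summed level of 6 basal keratinocyte markers was 6108 to 9849 CPM (counts relative to the scaled library total) in control and 10020 to 18340 CPM in distal libraries. The 6 upper hair follicle markers summed to 4847 to 7053 CPM and 9395 to 15600 CPM, and 5 bulge markers to 390.7 to 616 CPM and 424.9 to 681.8 CPM. Sox9 made up nearly all of the bulge sum, with means of 468 CPM in control and 553 CPM in distal libraries. Cd34, Krt15, Lhx2 and Lgr5 averaged at most 2.61 CPM in either region and did not pass the filter. Krt14 and Krt5 made up most of the basal sum and Krt17 most of the upper follicle sum, and all 3 rose, whereas Trp63 (-0.92), Itga6 (-0.83) and Ly6a (-0.44) of the same lists fell (edgeR adjusted p = 1.51e-05, 0.000525 and 0.0484). The 7 fibroblast markers ranged from 0.5352 to 244.5 CPM in control and from 2.295 to 93.48 CPM in distal libraries, with Lum at 0 throughout. Immune markers summed to at most 1.375 CPM, with Cd3e, Cd3g and Cd207 at 0 in every library, endothelial ones to at most 9.876 CPM with Cdh5 at 0, and melanocyte ones to at most 5.486 CPM with Dct at 0. The part of these markers in the results was not tested, and fewer cells of a type cannot be told apart from less RNA per cell.

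The 9 genes differ widely in base composition, and stretches of coding sequence are shown for 5 members to make that visible: Mysm1 and Usp16, which fell in distal libraries, Usp21 and Foxk1, which rose, and the GC-rich Foxk2, which was not called. Each is the central 120 bases of the longest coding exon (GENCODE, GRCm38), with G and C in capitals. Mysm1 is shown from exon 8 (chr4:94965440-94965559, minus strand), Usp16 from exon 14 (chr16:87479398-87479517, plus strand), Usp21 from exon 2 (chr1:171286590-171286709, minus strand), Foxk2 from exon 1 (chr11:121260267-121260386, plus strand) and Foxk1 from exon 1 (chr5:142401723-142401842, plus strand).
Mysm1: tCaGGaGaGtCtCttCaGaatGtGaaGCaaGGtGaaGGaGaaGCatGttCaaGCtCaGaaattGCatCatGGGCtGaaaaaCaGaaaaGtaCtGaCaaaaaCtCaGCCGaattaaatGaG
Usp16: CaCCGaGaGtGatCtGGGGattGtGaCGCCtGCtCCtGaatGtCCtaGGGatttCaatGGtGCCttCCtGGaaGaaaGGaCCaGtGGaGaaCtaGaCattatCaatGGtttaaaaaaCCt
Usp21: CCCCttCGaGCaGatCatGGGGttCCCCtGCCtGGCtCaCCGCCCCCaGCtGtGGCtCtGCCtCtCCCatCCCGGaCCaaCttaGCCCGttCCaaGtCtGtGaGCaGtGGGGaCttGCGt
Foxk2: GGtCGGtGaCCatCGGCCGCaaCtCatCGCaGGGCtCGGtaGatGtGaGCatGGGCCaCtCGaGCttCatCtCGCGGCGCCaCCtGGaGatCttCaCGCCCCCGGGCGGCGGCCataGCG
Foxk1: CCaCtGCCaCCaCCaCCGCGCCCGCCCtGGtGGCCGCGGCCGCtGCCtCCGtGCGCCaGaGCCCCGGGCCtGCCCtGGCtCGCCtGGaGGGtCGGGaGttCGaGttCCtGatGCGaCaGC
G and C make up 40.8% of the Mysm1 stretch, 46.7% of the Usp16 stretch, 64.2% of the Usp21 stretch, 67.5% of the Foxk2 stretch and 75.8% of the Foxk1 stretch. Over the whole coding sequence the shares were 42.2% for Mysm1, 43.7% for Usp16, 46.2% for Usp3, 48.0% for Asxl2 and 52.0% for Asxl1. They were 54.9% for Bap1, 57.8% for Usp21, 59.1% for Foxk2 and 64.4% for Foxk1.

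The question of the comparison was how cultured cells from the memory region differed from control cells in these enzymes and partners. In distal cells the catalytic subunit Bap1, its partner Foxk1 and the protease Usp21 rose, whereas the BAP1 activator Asxl2 and the proteases Usp16, Mysm1 and Usp3 fell. Asxl1 and Foxk2 did not pass the threshold, an adjusted p under 0.05 in edgeR. The largest difference was that of Asxl2, whose distal mean was 35.3% of its control mean, and the next was that of Usp21, whose distal mean was 254% of its control mean. With the trend of each library with GC content and transcript length removed, Asxl2 and Foxk2 passed, both lower, and the other 7 did not.

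**Figure D1:**
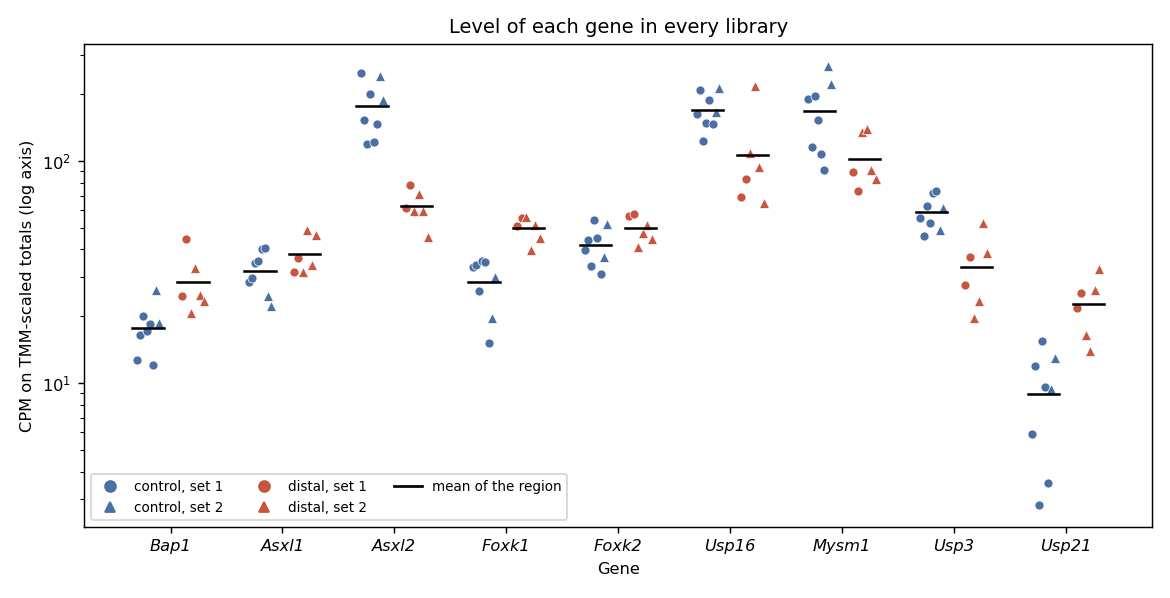
Level of each gene (CPM on a log axis) in every library, with control libraries in blue, distal libraries in red, circles for set 1 and triangles for set 2 of a region, and black bars for region means. Only for Asxl2 (distal 45.61 to 78.27 CPM, control 119 to 248.5 CPM) and Foxk1 (39.94 to 55.9 and 15.14 to 35.58 CPM) do the regions not overlap.

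Bap1 (ENSMUSG00000021901, chromosome 14, 31251450 to 31259944, GRCm38, plus strand), which encodes the catalytic subunit, was a low gene. Control libraries ranged from 12.06 to 26.4 CPM with a median of 17.81 CPM, and distal libraries from 20.62 to 44.62 CPM with a median of 24.72 CPM. All 6 distal libraries lay above the control mean, but only distal libraries 2 and 4 lay above the highest control library, which was control library 7. Bap1 averaged 17.7 ± 4.49 CPM over control (mean ± SD, n = 8) and 28.5 ± 8.91 CPM over distal libraries (n = 6), and rose by 0.68 ± 0.23 on the log2 scale (SE; adjusted p = 0.0192, edgeR). Removal of the GC and length trend ended the call and left no clear direction, with Bap1 at -0.09 ± 0.22 (SE; edgeR adjusted p = 0.824). Taking that trend from the longest transcript of each gene gave 0.12 (edgeR adjusted p = 0.754). Summing the counts of each set also ended the call (0.78; adjusted p = 0.0836, edgeR).

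The ASXL proteins hold a domain that switches BAP1 on, and they compete for it. Asxl2 (chromosome 12, 3426857 to 3506852, plus strand) ranged from 119 to 248.5 CPM with a median of 171.4 CPM in control libraries, and from 45.61 to 78.27 CPM with a median of 60.65 CPM in distal libraries. Every distal library lay below every control library, by a gap wider than the whole distal range. Asxl2 averaged 178 ± 50.6 CPM over control and 62.7 ± 11.2 CPM over distal libraries (mean ± SD), and fell, with a log2 difference of -1.50 ± 0.20 (SE; adjusted p = 1.19e-05, edgeR). Once the GC and length trend was removed it was at -0.63 ± 0.19 (SE; edgeR adjusted p = 0.0254). When that trend was taken from the longest transcript of each gene, in place of the median over transcripts, it was at -0.46 and did not pass (edgeR adjusted p = 0.113). Asxl1 (chromosome 2, 153345829 to 153404007, plus strand) averaged 32.0 ± 6.76 CPM over control and 38.3 ± 7.65 CPM over distal libraries. Its ranges, 22.29 to 40.45 CPM and 31.62 to 49.12 CPM, overlapped, and its difference of 0.26 ± 0.19 (SE, log2) did not pass (edgeR adjusted p = 0.264).

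FOXK1 and FOXK2 bind DNA through a forkhead domain and recruit BAP1. Foxk1 (chromosome 5, 142401497 to 142462011, plus strand) ranged from 15.14 to 35.58 CPM with a median of 31.56 CPM in control, and from 39.94 to 55.9 CPM with a median of 51.31 CPM in distal libraries. The regions did not overlap, and control libraries 6 and 7 were the lowest. Foxk1 averaged 28.6 ± 7.70 CPM over control and 49.9 ± 6.23 CPM over distal libraries (mean ± SD), and rose by 0.80 ± 0.20 on the log2 scale (SE; adjusted p = 0.00301, edgeR). Removal of that trend put Foxk1 at -0.10 ± 0.20 (SE; edgeR adjusted p = 0.772). Foxk2 (chromosome 11, 121259990 to 121309896, plus strand) averaged 42.1 ± 8.37 CPM and 49.8 ± 6.69 CPM, and 5 of 6 distal libraries lay above its control mean. The difference was 0.24 ± 0.16 (SE, log2; adjusted p = 0.233, edgeR). It was -0.49 ± 0.16 (SE; adjusted p = 0.0417, edgeR) once the trend was removed, past the threshold in the other direction. Taking the trend from the longest transcript gave -0.18 for Foxk2 (edgeR adjusted p = 0.47).

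Usp16 (chromosome 16, 87454703 to 87483517, plus strand), an H2A protease needed for passage through mitosis, ranged from 123.6 to 213.8 CPM with a median of 164 CPM in control libraries. Distal libraries ranged from 64.99 to 217.6 CPM with a median of 88.56 CPM. Distal libraries 1, 2, 3, 5 and 6 lay below every control library, and distal library 4, at 217.6 CPM, lay above all of them. Usp16 averaged 170 ± 31.7 CPM over control and 106 ± 56.8 CPM over distal libraries (mean ± SD), and fell by 0.67 ± 0.24 on the log2 scale (SE; adjusted p = 0.0266, edgeR). The call was lost when control library 8 or distal library 1, 2, 3, 5 or 6 was left out (edgeR adjusted p = 0.0567, 0.0869, 0.0763, 0.0516, 0.0682 and 0.0872), with values of -0.54, -0.50, -0.54, -0.58, -0.56 and -0.49. Upper-quartile scaling also ended it (-0.53, edgeR adjusted p = 0.0509), and without the GC and length trend the value was -0.05 ± 0.20 (SE; edgeR adjusted p = 0.898).

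Mysm1 (chromosome 4, 94942040 to 94979100, minus strand), the metalloprotease of the group, ranged from 91.55 to 268.3 CPM with a median of 172 CPM in control, and from 73.15 to 139.8 CPM with a median of 90.19 CPM in distal libraries. Control libraries 7 and 8, which form control set 2, were the highest, and 4 of 6 distal libraries lay below the lowest control library. Mysm1 averaged 168 ± 62.1 CPM over control and 102 ± 28.3 CPM over distal libraries (mean ± SD), and fell by 0.72 ± 0.24 on the log2 scale (SE; adjusted p = 0.0192, edgeR). Leaving out control library 7 (-0.51) or distal library 1 (-0.61), 2 (-0.56), 5 (-0.60) or 6 (-0.59) ended the call, with edgeR adjusted p = 0.0568, 0.0563, 0.0696, 0.0567 and 0.0625. Mysm1 was at 0.11 ± 0.20 (SE; edgeR adjusted p = 0.758) once the GC and length trend was removed.

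Usp3 (chromosome 9, 66514637 to 66593142, minus strand) encodes a protease that removes ubiquitin from H2A and H2B and acts in the DNA damage response. It ranged from 46.21 to 73.57 CPM with a median of 58.48 CPM in control, and from 19.7 to 52.79 CPM with a median of 32.35 CPM in distal libraries. Only distal library 5, at 52.79 CPM, lay within the control range, and the other 5 lay below it. Usp3 averaged 59.2 ± 10.1 CPM over control and 33.2 ± 12.1 CPM over distal libraries (mean ± SD), and fell by 0.84 ± 0.21 on the log2 scale (SE; adjusted p = 0.00354, edgeR). It was at -0.33 ± 0.23 (SE; edgeR adjusted p = 0.341) without the GC and length trend, and at -0.69 when each set was summed to 1 column (adjusted p = 0.0692, edgeR).

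Usp21 (chromosome 1, 171281945 to 171287991, minus strand), a protease tied to the start of transcription, was the lowest of the 9 genes, with 15 to 93 counts per library. It ranged from 2.833 to 15.46 CPM with a median of 9.554 CPM in control, and from 14 to 32.7 CPM with a median of 23.7 CPM in distal libraries. Distal library 4, at 14 CPM, was the only one within the control range. Usp21 averaged 8.96 ± 4.54 CPM over control and 22.8 ± 6.87 CPM over distal libraries (mean ± SD), and rose by 1.34 ± 0.35 on the log2 scale (SE; adjusted p = 0.00416, edgeR). The value was 0.44 ± 0.32 (SE; edgeR adjusted p = 0.368) once the trend was removed.

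In all, 3 members rose and 4 fell, and 2 were not called. Of all tested genes 48.3% were called, 24.3% higher and 24.1% lower, so a call is common in these libraries. The distal libraries did not overlap the control libraries from above in 12.7% and from below in 5.65% of all tested genes, and among the members in 1 gene each. The median log2 fold change was 0.24 over the members and -0.16 over all tested genes. Upper-quartile scaling moved the latter to 0.00, and no member changed direction between TMM, the size factors of DESeq2 and upper-quartile scaling. With the GC and length trend removed, no member rose and 2 fell, against 18.9% of all genes called, 10.4% higher and 8.56% lower.

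**Figure D2:**
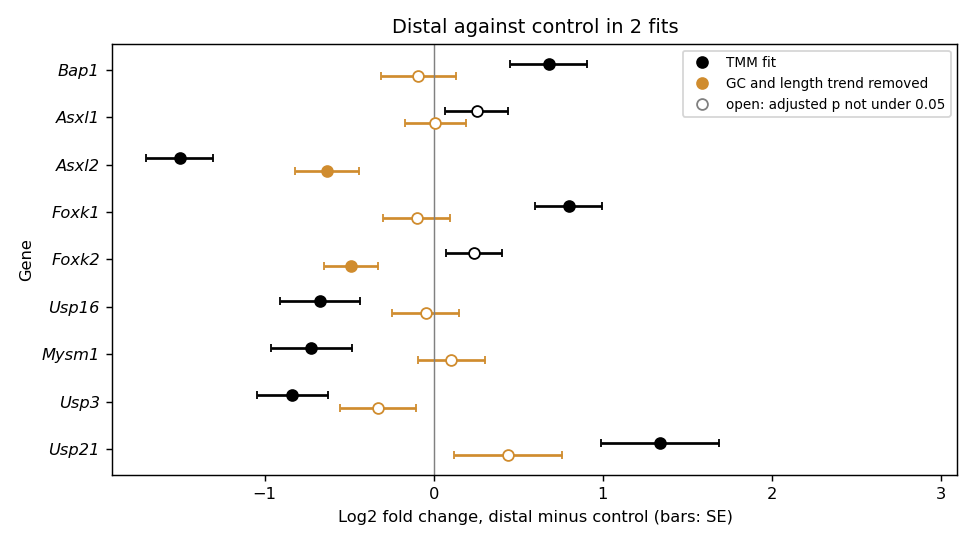
Log2 fold change of each gene (distal minus control, bars are SE) in the TMM fit in black and with the GC and length trend removed in orange, with filled points for adjusted p under 0.05. The values of 7 genes are past the threshold in black, and those of Asxl2 (-0.63) and Foxk2 (-0.49) in orange.

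The direction of the members followed the GC content of their transcripts, as it did over all genes. Tested genes were divided into 5 equal groups by the median GC content of their transcripts. Mysm1 (40.8%) fell in the group with the lowest GC content, which had a median log2 fold change of -0.89. Asxl2 (44.2%), Usp16 (44.3%) and Usp3 (46.3%) fell in the next, with a median of -0.57. Asxl2 at -1.50 lay further from 0 than both medians, and Usp16 at -0.67 lay between them. Asxl2 and Usp16 were just above the lower bound of their group, 44.09%. In their longest transcripts the GC content was 41.75% and 38.25%, below that bound. Asxl1 (51.7%), Foxk2 (54.9%) and Bap1 (55.3%) were in the group with a median of 0.50, and Usp21 (56.9%) and Foxk1 (63.5%) in the highest, with a median of 1.09. No member that rose had a lower GC content than a member that fell. Whether the trend arose in the cells or in library making was not tested.

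**Figure D3:**
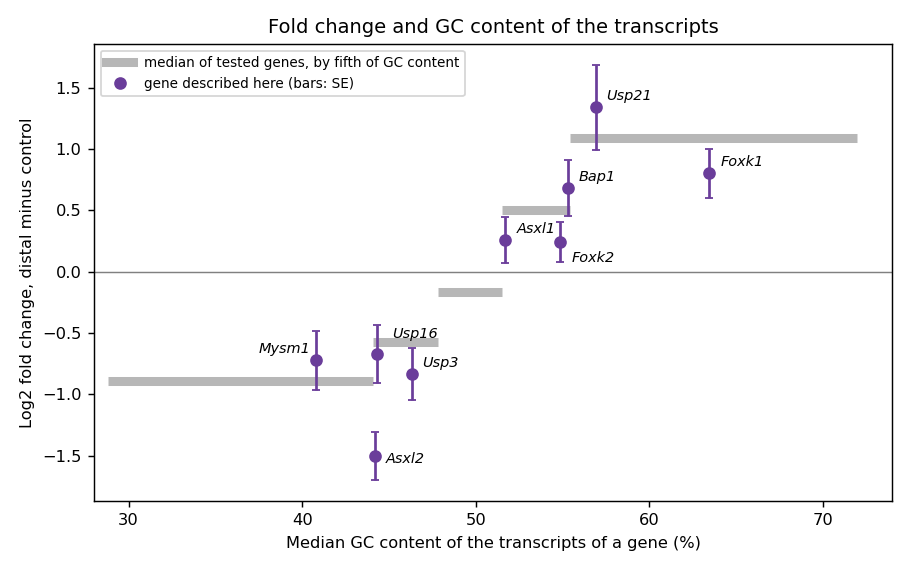
Log2 fold change (distal minus control, bars are SE) of the 9 genes against the median GC content of their transcripts in percent, with grey bars for the median of all tested genes in each of the 5 GC groups. The grey medians rise from -0.89 to 1.09, and Asxl2 at -1.50 lies below the bar of its group at -0.57.

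Ratios of paralogs within a library do not depend on the scaling of that library. On the scale of CPM per kb of exon, Asxl2 exceeded Asxl1 in all 8 control libraries, at 1.42 to 4.54 times the level of Asxl1, and in none of the 6 distal libraries, at 0.459 to 0.999 times. The log2 ratio averaged 1.35 ± 0.66 (SD, n = 8) over control and -0.38 ± 0.41 (SD, n = 6) over distal libraries, and the regions did not overlap. Per median transcript length the means were 0.09 in control and -1.64 in distal libraries, and per longest transcript 1.68 and -0.06. With the GC and length trend removed they were 0.87 and 0.26, which turns the sign of the distal mean. Foxk2 exceeded Foxk1 in all 14 libraries, with a mean log2 ratio of 1.12 ± 0.30 (SD) over control and 0.52 ± 0.24 (SD) over distal libraries. The lowest control ratio of this pair, 0.78 in control library 1, lay just above the highest distal one, 0.78 in distal library 4. These ratios were not tested, as both members of each pair were chosen with the differences known.

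**Figure D4:**
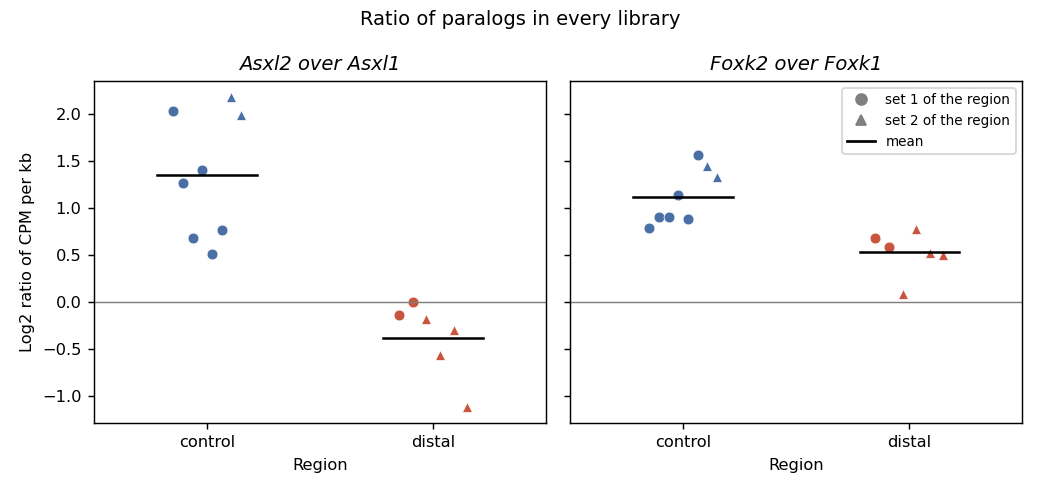
Log2 ratio of CPM per kb of Asxl2 over Asxl1 (left) and of Foxk2 over Foxk1 (right) in every library, with circles and triangles for set 1 and set 2 of a region and bars for means. The ratio of Asxl2 over Asxl1 lies above 0 in every control library and at or below 0 in every distal library.

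Per kb of exon, the control libraries ordered the members from Mysm1 (18.8 CPM per kb ± 6.94, SD) and Usp16 (18.0 ± 3.35) through Asxl2 (11.2 ± 3.17), Usp3 (8.64 ± 1.48) and Foxk2 (8.00 ± 1.59). Asxl1 (4.30 ± 0.909), Bap1 (3.79 ± 0.960), Foxk1 (3.77 ± 1.02) and Usp21 (1.89 ± 0.954) followed. Ranges of neighbours in that order overlapped except between Foxk2 and Asxl1. In distal libraries Mysm1 (11.4 ± 3.16) and Usp16 (11.2 ± 6.01) again led, Foxk2 (9.47 ± 1.27) and Foxk1 (6.58 ± 0.821) followed, and Asxl2 (3.93 ± 0.702) was last. The only neighbours without overlap there were Foxk2 and Foxk1. Asxl2 thus ranked 3 of 9 in control and 9 of 9 in distal libraries, and per length of the longest transcript it had the same ranks. Per median transcript length its ranks were 5 and 7, since the annotation lists many short fragments.

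Within each region the sets could be compared in a model with 1 mean per set. No member was called between the control sets or between the distal sets, and neither was any other gene (0% of 14579 tested). However, 1177 and 999 genes had an unadjusted p under 0.05 in edgeR, and DESeq2 called 45 and 31. On simulated counts these comparisons recovered 2 of 67 genes changed 2-fold for the control sets and 4 of 67 for the distal sets. They could thus miss most differences of that size. The members with an unadjusted edgeR p under 0.05 were Asxl1, at -0.60 ± 0.26 (SE) in control set 2 minus set 1, and Mysm1, at 0.75 ± 0.28 (SE), with edgeR adjusted p = 0.595 and 0.557. Mysm1 averaged 143 CPM in control set 1 and 246 CPM in control set 2, and 81.0 CPM and 112 CPM in the distal sets. For Bap1, Foxk1, Foxk2 and Usp21 both distal sets averaged above both control sets, and for Asxl2, Usp16, Mysm1 and Usp3 both averaged below them. Asxl1 was mixed, and Foxk2 was not called between the regions. How many of all tested genes had their set means in such an order was not counted, and 48.3% were called between the regions. These orders therefore add no support to the calls of the members. Leaving out control set 1, the larger one, ended the calls of Bap1 (0.37), Usp3 (-0.70), Usp21 (1.05) and Usp16 (-0.80), with edgeR adjusted p = 0.477, 0.166, 0.0892 and 0.159. Without control set 2 the calls of Mysm1 (-0.41) and Usp16 (-0.54) ended (edgeR adjusted p = 0.124 and 0.0696). Without distal set 1 those of Bap1 (0.60), Usp16 (-0.42) and Mysm1 (-0.51) ended (edgeR adjusted p = 0.073, 0.204 and 0.149). All 7 calls were made without distal set 2, and Asxl2 and Foxk1 were called in each of these 4 cases.

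Among the distal libraries depth moved with the level of Usp16 and Mysm1. This did not hold for Usp16 in control, where the deepest library, control library 3, had the lowest level, 123.6 CPM. Of the distal libraries only libraries 3 and 4, both of distal set 2, had over 4000000 counts. They were also the highest distal libraries for Usp16 (108.6 and 217.6 CPM) and Mysm1 (134.9 and 139.8 CPM). Against the 8 control libraries these 2 gave log2 fold changes of -0.04 for Usp16 and -0.27 for Mysm1 (edgeR adjusted p = 0.948 and 0.667). In the same libraries Asxl2 was at -1.42 ± 0.30 (SE) and Usp3 at -1.44 ± 0.27 (SE), both called (edgeR adjusted p = 0.0131 and 0.00757). Bap1 (0.62), Foxk1 (0.76) and Usp21 (0.79) were not called there, with edgeR adjusted p = 0.255, 0.155 and 0.389. Over all 14 libraries their values were 0.68, 0.80 and 1.34. Calls were fewer for all genes in this smaller comparison, 1243 of 13985 tested, against 48.3% over all libraries. Depth and region cannot be told apart in these libraries.

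**Figure D5:**
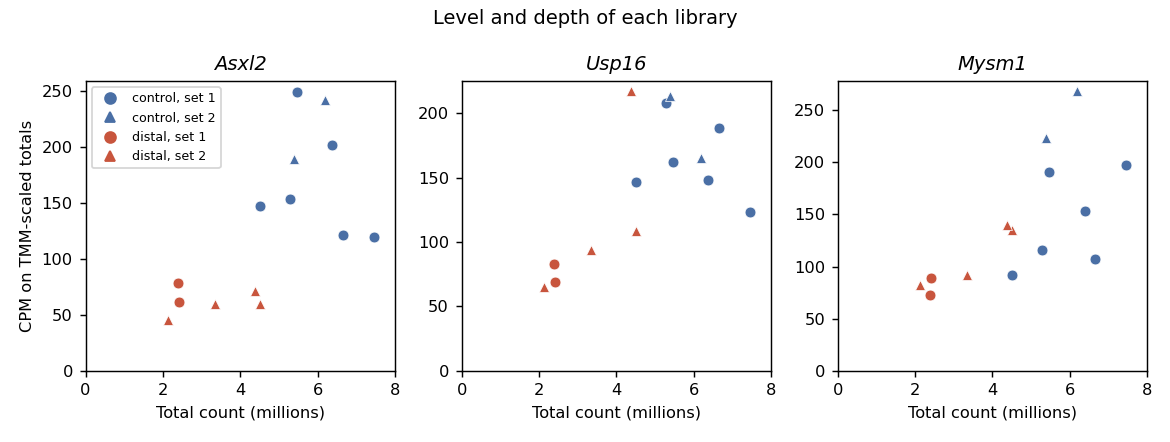
Level (CPM) of Asxl2, Usp16 and Mysm1 against the total count of each library, with control libraries in blue and distal libraries in red, and circles and triangles for set 1 and set 2. The 2 deepest distal libraries reach 108.6 and 217.6 CPM for Usp16 but 59.8 and 71.16 CPM for Asxl2.

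Of 5 further tested partners of BAP1 Ogt, the sugar transferase that binds the complex, averaged 199 ± 44.9 CPM and 85.7 ± 27.9 CPM (SD) and fell by 1.21 ± 0.21 on the log2 scale (SE; adjusted p = 0.00016, edgeR), and none rose. It was at -0.43 without the GC and length trend (edgeR adjusted p = 0.096). Hcfc1, a scaffold that binds BAP1, was at -0.08 (edgeR adjusted p = 0.625), and at -0.66 with the trend removed, where it was called (edgeR adjusted p = 0.00198). Mbd6 (0.44) and Mbd5 (-0.48) were not called (edgeR adjusted p = 0.268 and 0.302). The median over the 5 was -0.29. Calls in this list and those below stand beside all tested genes, of which 24.3% were called higher and 24.1% lower. With the GC and length trend removed those shares were 10.4% and 8.56%. Asxl3, at a mean of 0.349 CPM in control and 0.336 CPM in distal libraries, did not pass the filter.

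Of 11 tested other deubiquitinases of H2A and H2B, none rose and 4 fell, with a median of -0.39. Brcc3, of the BRCA1-A complex, fell by 1.11 ± 0.20 (SE), Usp7 by 0.96 ± 0.15 (SE) and Usp46 by 0.59 ± 0.20 (SE) on the log2 scale (edgeR adjusted p = 0.000295, 7.2e-05 and 0.0199). In the deubiquitinase module of the SAGA coactivator 1 of 4 rose, the adaptor Atxn7l3 at 0.62 ± 0.22 (SE; edgeR adjusted p = 0.028), and Eny2 (-0.36) and Atxn7 (-0.48) were not called. Without the GC and length trend Brcc3 (-0.03), Usp7 (-0.27), Usp46 (0.09) and Atxn7l3 (-0.01) were not past the threshold, and Usp22 (-0.40) and Atxn7 (-1.23) were called lower, and Usp12 (0.79) higher (edgeR adjusted p = 0.0445, 0.0112 and 0.0496).

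Genes of the writers of the mark were described in the same fit, and no ratio or test against Bap1 was made. Of 10 tested genes of Polycomb complex 1, 2 fell and none rose, with a median of -0.32. The ligase gene Rnf2 fell by 0.92 ± 0.21 (SE) and the Polycomb ring finger gene Pcgf6 by 0.97 ± 0.20 (SE) on the log2 scale (edgeR adjusted p = 0.00157 and 0.00071). Pcgf1 was at 1.22 ± 0.52 (SE; edgeR adjusted p = 0.0582). The second ligase gene, Ring1, averaged 4.85 ± 2.62 CPM and 7.33 ± 2.14 CPM (SD) and was not called (edgeR adjusted p = 0.211). Rnf2 and Pcgf6 were at -0.34 and -0.33 without the GC and length trend and no longer past the threshold. Among 7 genes of H2A ubiquitin in DNA damage only Brca1 was called, at -0.86 ± 0.33 (SE; edgeR adjusted p = 0.0413), and it was at -0.41 and not called with the GC and length trend removed (edgeR adjusted p = 0.415). Rnf168 (-0.66) and Rad18 (-0.44) were not.

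Over the 14 libraries, the genes most like Bap1 in log2 CPM were Cchcr1, Cenpm and Atg9b, with Pearson r of 0.89, 0.886 and 0.886. With region means removed they were Bbs12, Xpnpep1 and Cchcr1 (0.833, 0.816 and 0.807). The genes most like Asxl2 were Brwd1, Fam172a and Gm42576 (0.932, 0.932 and 0.929), and with region means removed Mapkbp1, Fbxw2 and Pold3 (0.847, 0.828 and 0.813). Among the members, the closest pair was Foxk2 with Usp21 (r = 0.804 and, with region means removed, 0.763). Bap1 with Asxl2 had r = -0.538, and 0.286 with region means removed. These values describe 14 libraries that share sets, depth and the GC trend. The genes named as most like Bap1 or Asxl2 had the highest r among all tested genes. Whether those r exceed what such a search gives by chance was not tested.

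The promoters of Bap1 and Asxl2, which moved in opposite directions in the TMM fit, are shown as the 250 bases before the start in RefSeq (GRCm38.p6), with CG dinucleotides in capitals. They are Bap1 (chr14:31251239-31251488, plus strand) and Asxl2 (chr12:3426607-3426856, plus strand).
Bap1: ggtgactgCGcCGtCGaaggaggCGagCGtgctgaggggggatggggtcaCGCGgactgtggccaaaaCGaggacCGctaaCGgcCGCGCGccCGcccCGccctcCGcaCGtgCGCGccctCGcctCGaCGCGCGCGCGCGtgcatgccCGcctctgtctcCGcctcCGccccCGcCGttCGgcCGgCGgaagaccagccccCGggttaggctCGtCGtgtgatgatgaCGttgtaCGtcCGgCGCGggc
Asxl2: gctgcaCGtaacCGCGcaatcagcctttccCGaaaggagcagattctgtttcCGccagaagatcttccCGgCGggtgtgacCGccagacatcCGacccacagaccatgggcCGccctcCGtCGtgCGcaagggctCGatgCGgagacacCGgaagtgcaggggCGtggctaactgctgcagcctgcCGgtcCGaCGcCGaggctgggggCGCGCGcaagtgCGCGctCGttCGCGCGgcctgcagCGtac
The Bap1 window holds 43 CG dinucleotides and the Asxl2 window 31, above the median of 6 over 32851 promoter windows. Windows were found for 8 of the 9 members, all but Foxk1, with 11 to 48 CG dinucleotides. Starts in RefSeq and GENCODE can differ. The whole Usp16 window and the ends of the Bap1, Usp3 and Usp21 windows lie within the gene positions given above from GENCODE. So does the last base of the Asxl1 window. The SP/KLF letters GGGCGG, searched on both strands, were in 7 of 8 member windows and in 32.7% of all windows. The ETS letters CCGGAAGT were in 3, those of Mysm1, Asxl2 and Usp16, and in 2.88% of all. The forkhead letters GTAAACA were in none of the 8 and in 3.17% of all. The search covered 6 motifs, and a match of letters does not show a bound site.

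Few of the members' bases are shared with other genes. Of all runs of 50 bases in the members' transcripts, the largest share that occurred in transcripts of another gene was that of Asxl1 (150 of 7484), followed by Usp16 (153 of 9722) and Asxl2 (196 of 16082), and Bap1, Foxk2 and Usp21 had no such run. Usp16 shares 192 exonic bases with Cct8 on the opposite strand, 2.03% of its exons. Cct8, a chaperonin subunit gene, averaged 1723 ± 170 CPM and 778 ± 193 CPM (SD) and fell by 1.15 ± 0.15 on the log2 scale (SE; adjusted p = 1.22e-05, edgeR). As no source states that counting used strand, reads of that shared stretch cannot be assigned to 1 of the 2 genes. Usp16 itself averaged 170 CPM over control and 106 CPM over distal libraries, far below Cct8. How much such reads add to the counts of Usp16 was not tested. Asxl1 and Asxl2 overlap noncoding antisense genes by 197 and 155 exonic bases.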

How the data were processed

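Smart-seq2 cDNA and Nextera XT libraries were made from cultured cells, per the labels' protocols. The authors deposited raw counts per gene symbol for 14 libraries, with HISAT2, featureCounts and the build mm10/GRCm38 named, per the submitters' processing notes. The annotation release, strand setting and treatment of multi-mapping reads are not given in the sources used here.

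The counts went into a two-sided quasi-likelihood F test of edgeR 4.0.16 under R 4.3.3, with filterByExpr, TMM and robust dispersions, and p-values were adjusted over all 11757 genes tested with Benjamini-Hochberg, threshold 0.05. SE is the absolute log2 fold change over the square root of F. CPM uses TMM-scaled totals. Exon lengths, GC content and positions came from GENCODE M21. For the GC and length removal, deviations of log2 CPM (prior count 2) were fitted per library with natural splines (4 degrees of freedom each) and entered as offsets. DESeq2 1.42.0 and limma 3.58.1 served as alternatives.

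The code was tested on simulated counts, in which 11557 of 11757 genes were left unchanged. For distal against control, 1 of 67 genes changed 1.5-fold, 23 of 67 changed 2-fold and 54 of 66 changed 4-fold were recovered. Of the unchanged genes 1 was called. No 2 libraries of a set looked like 1 library deposited again: chi-square divided by its degrees of freedom was 6.83 to 40.0 over 23 pairs.

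The members and gene lists were chosen with earlier results of these data known. Beside the 9 members, at most 3 genes with the smallest p are named per list, plus the 3 genes most like Bap1 and Asxl2, the overlapping genes and Ring1. Hcfc1, Usp12, Usp22, Asxl3, Uchl1 and single marker genes are named in addition and were chosen after their values were seen. The trend from the longest transcript was also added after the data were seen. Other alternatives were the scaling, the filter, single libraries or sets left out, counts summed per set, a depth minimum or covariate and a replicate block.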

Additional observations from a re-analysis of the deposited data

Results flagged for a closer look

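Usp16 in distal library 4, at 217.6 CPM, lay far from the other 5 distal libraries, which ranged from 64.99 to 108.6 CPM. The gap to the nearest of them was 0.714 of the whole range, above the 95% critical value of 0.625 of Dixon's test for 6 libraries. It was the only such case among 22 groups of values examined, and chance gives about 1 in 20. Without that library the log2 fold change of Usp16 was -0.90 (edgeR adjusted p = 0.000249).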

How the results depend on the processing

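Over 34 alternatives, 238 of 306 values of single members kept their sign and their side of the threshold, 54 lost a call and 14 changed sign. Asxl2 was lower and called in all 30 alternatives that left the GC trend in place. Members called were 5 to 7 and genes called 4911 to 5842 when 1 library was left out. In the main fit 7 of 9 members and 5681 of 11757 genes were called. Other counts of members and genes called were 4 and 3582 of 11757 with counts summed per set. With the GC and length trend removed they were 2 and 2207 of 11654. They were 0 and 312 of 11654 with both, and 0 and 2201 of 11654 with the trend from the longest transcript. The last 2 counts of 0 members, from edgeR, were 0 and 1 at an unadjusted p under 0.05. Members and genes called were 2 and 1243 of 13985 in libraries over 4000000 counts, where distal has 2 libraries. They were 2 and 952 of 11757 with the log2 total as a covariate. Without control set 1 they were 3 and 2267 of 12609, and without distal set 1 they were 4 and 4070 of 12527. The cause was not tested.

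Same-numbered libraries are not stated to be paired, and their deviations correlated above 0.1 in 1 of 6 pairs, with 1 control library closest to its own number. With the replicate block 7 members and 5442 genes were called, and with the replicate block and the GC and length removal 1 and 1908.

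The sign of the value changed with the GC and length trend removed for Bap1 (-0.090), Foxk1 (-0.10), Foxk2 (-0.49) and Mysm1 (0.11). With that removal on counts summed per set it changed for Bap1 (-0.18), Foxk1 (-0.0062) and Foxk2 (-0.47). With the replicate block as well it changed for Asxl1 (-0.11), Foxk1 (-0.20), Foxk2 (-0.44) and Mysm1 (0.35). With the longest transcript it changed for Foxk2 (-0.18), Usp16 (0.19) and Mysm1 (0.31). Of these values only Foxk2 at -0.49 was called. CPM moved by less than 1 SD under other scalings in all 36 cases, but CPM per kb did so in 11 of 18 with the longest and 0 of 18 with the median transcript. The mean log2 ratio of Asxl2 over Asxl1 was 0.09 in control and -1.64 in distal libraries per median transcript length. Usp21 had the fewest counts, 15 to 93 a library, and was still called once every library was thinned down to the depth of the shallowest (1.22, edgeR adjusted p = 0.0082), where Usp16 (-0.54, 0.0629) and Mysm1 (-0.61, 0.0538) were not.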

Other observations

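In the USP family as a whole, 59 symbols start with Usp and a digit, and 41 were tested. The 59 include antisense and pseudogene symbols, Usp6nl, which is no protease, and the members Usp3, Usp16 and Usp21. They also include the other H2A and H2B deubiquitinases described above except Brcc3. Usp7 is therefore the same gene in both lists. Of these 41, 61% were called in distal libraries, 4 higher and 21 lower. Of all tested genes 24.3% were called higher and 24.1% lower. The median of the 41 was -0.55 (log2) against -0.16 over all tested genes. With the GC and length trend removed 2 rose and 3 fell, against 10.4% higher and 8.56% lower over all genes. Usp7 (-0.96), Usp34 (-1.48) and Usp15 (-0.94) had the smallest p, with edgeR adjusted p = 7.2e-05, 8.39e-05 and 9.38e-05, and for each of the 3 the regions did not overlap, distal being the lower. Usp34 was at -0.54 without the trend and still called (edgeR adjusted p = 0.0171).

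In the TMM fit the tested relatives of Bap1 in the UCH family went the other way from Bap1. Uchl5, a proteasome-bound hydrolase, averaged 431 ± 50.8 CPM over control (mean ± SD, n = 8) and 203 ± 63.1 CPM over distal libraries (n = 6), and Uchl3 388 ± 85.6 CPM and 176 ± 36.0 CPM, and both fell. Their log2 fold changes were -1.09 and -1.14 (edgeR adjusted p = 8.61e-05 and 4.01e-05), with no overlap between regions. Without the GC and length trend they were at -0.30 and -0.38 and not called (edgeR adjusted p = 0.0718 and 0.113). Bap1 itself was then at -0.09 ± 0.22 (SE), with no clear direction. The median GC content of the transcripts was 40.8% for Uchl5 and 42.2% for Uchl3, against 55.3% for Bap1. Uchl1 was not tested.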
